A study of Mus musculus with 6 samples.

Results

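Small nucleolar RNAs (snoRNAs) were taken as all genes whose symbols start with Snora or Snord followed by a digit. The array annotation held 100 such symbols, and 73 of them had a probe set annotated to that symbol alone: 26 box H/ACA RNAs (Snora) and 47 box C/D RNAs (Snord), out of 22180 genes measured in all. The other 27 symbols, 9 H/ACA and 18 C/D, occurred only on probe sets that carry several gene symbols and have no value of their own. RNA came from macrophages grown out of C57BL/KaLwRij mouse marrow with M-CSF, the ligand of CSF1R, for 7 days and kept overnight with cells of the mouse myeloma line 5TGM1-luc. In one group, of 3 arrays, 0.5 nM of an antibody against mouse CSF1R was then present for 3 days, and in the other, also of 3 arrays, a control IgG, whose dose is not stated apart from the antibody's. The myeloma cells were washed off 4 times before RNA was taken, marrow came from 3 mice, and no label ties an array to a mouse. The p-values therefore measure the spread between these arrays, which may be technical.

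snoRNAs are short RNAs of the nucleolus, most of them cut out of introns of a host gene after splicing. Box H/ACA RNAs guide the conversion of uridine to pseudouridine, and box C/D RNAs guide methylation of the ribose, in both cases by base pairing with the target, which is mostly ribosomal RNA. A few of either kind serve in cutting the ribosomal RNA precursor instead. Each kind works as a particle with its own set of core proteins. In bulk RNA such as this, fewer cells of a type and less RNA per cell cannot be told apart. A probe set placed on an intronic snoRNA can also read unspliced host RNA, and spin columns of the type used recover short RNAs poorly. The measured members had annotated lengths of 56 to 205 bases (median 118) for H/ACA RNAs and 48 to 221 bases (median 68) for C/D RNAs.

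Snora19 is shown because it was the only member whose whole annotated length lay inside a sequence that was given, the RefSeq (GRCm38.p6) hairpin of Mir3084-2, at chr19:60774330-60774385 on the minus strand. The capitals mark the box ACA that gives the H/ACA family part of its name, here 3 bases from the end of the RNA.
Snora19: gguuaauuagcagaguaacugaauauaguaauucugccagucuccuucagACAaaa
Among 1005 mouse miRNA hairpins of the same table, searched on the given strand only, 16 (1.59%) ended in ACANNN. Start regions of 4 host genes are shown because many hosts are known to begin transcription at a C followed by an unbroken run of C and T, a feature of genes whose translation follows growth signals. Each runs from 20 bases before the annotated start to 30 bases from it (RefSeq, GRCm38.p6), and the capitals mark the run of C and T that opens with a C at the annotated first base. They lie at chr17:34952439-34952488 on the minus strand (1110038B12Rik, host of Snord52), chr7:110018295-110018344 on the plus strand (Ipo7, host of Snora23), chr11:106500895-106500944 on the plus strand (Gm36220, host of Snord104) and chr19:8723467-8723516 on the plus strand (Snhg1, host of Snord22).
1110038B12Rik: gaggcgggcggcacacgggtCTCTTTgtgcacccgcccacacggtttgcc
Ipo7: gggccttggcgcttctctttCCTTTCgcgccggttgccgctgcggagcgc
Gm36220: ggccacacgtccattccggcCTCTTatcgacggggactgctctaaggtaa
Snhg1: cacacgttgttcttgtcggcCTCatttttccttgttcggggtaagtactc
A run of at least 5 bases, read on the gene's strand, occurred in the first 3 of these and in no other of the 40 host genes with a start region (7.5%), against 3.01% of 27025 genes. A gene was counted if any of its annotated starts had the run, and 1110038B12Rik has another start, chr17:34952442-34952491 by the same window, that does not open with a C and has none. The run is a match of letters at an annotated start and says nothing on where transcription began here.

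Box H/ACA RNAs were lower with the CSF1R antibody than with IgG in 16 of 26 cases and higher in none, and 25 of the 26 differences were negative. The median log2 difference (antibody minus IgG) was −0.39, with quartiles of −0.47 and −0.25. Calls are from limma with Benjamini-Hochberg adjustment over all 22180 genes at a threshold of 0.05, under which 16% of all genes were lower and 12.5% higher, with a median of −0.02. The 61.5% of H/ACA RNAs that were lower thus stood above that background share. The family's median on each antibody array lay between 7.43 and 7.49 on the log2 scale, against 7.71 to 7.79 on the IgG arrays, so the family's level was lower on each antibody array than on any IgG array. The 16 called falls ran between 0.28 and 0.65, at most 1.56-fold. The count of lower members was 9 with cyclic loess scaling, 9 without antibody array 1 and 10 without IgG array 1 or with arrays centred on their medians, and no H/ACA member was higher in any of these. Values did not overlap between the groups, antibody below IgG, for 17 of 26 H/ACA RNAs, where 22.7% of all genes showed this. One of the called members, Snora19, lay below the guide to background, a log2 level of 4.92 that 95% of 1394 genes for smell and pheromone receptors did not exceed. Of the 25 H/ACA RNAs above this guide, 60% were lower, against 26% of the 13116 genes above it. Snora19 has a further probe set with the same values, and in a limma fit over all 41345 probe sets its adjusted p was 0.078.

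Snora23, whose human counterpart guides a pseudouridine of the large ribosomal subunit RNA, showed the largest called fall of the family. Its log2 values were 8.05, 8.09 and 8.26 on the antibody arrays, against 8.67, 8.81 and 8.86 on the IgG arrays. All 3 antibody arrays were low, and the change was −0.65 (SE 0.08, limma adjusted p 0.0013). Snora73a and Snora73b, known as U17, are needed to cut the precursor of the small subunit RNA and are not thought to act as modification guides. Snora73b had 8.31, 8.37 and 8.30 with the antibody, against 8.84, 8.81 and 8.88 with IgG, and Snora73a had 8.46, 8.64 and 8.44, against 8.98, 9.05 and 8.99. The groups stood apart for both, and the changes were −0.51 (SE 0.05, limma adjusted p 0.00037) for Snora73b and −0.49 (SE 0.07, limma adjusted p 0.0018) for Snora73a. Snora74a, known as U19, a guide to the large subunit RNA, spread more on the antibody arrays, where it had 6.78, 6.96 and 7.25, against 7.39, 7.40 and 7.50 with IgG (change −0.44, limma adjusted p 0.034). That call was lost without any 1 of 5 of the 6 arrays, antibody array 3 excepted, with adjusted p values of 0.074 to 0.12.

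Among the other named H/ACA members, Snora7a changed by −0.51, Snora41 by −0.46, Snora69 by −0.45, Snora68 by −0.44, Snora78 and Snora28 both by −0.42 and Snora21 by −0.33, all past the test. Snora7a and Snora68 each had 1 identical value on all 3 antibody arrays, 6.73 for Snora7a and 7.91 for Snora68, so their spread in that group is not a measured replicate error. Among the 13116 genes above the background guide, 345 had 1 identical value on all antibody arrays and 88 on all IgG arrays. Other genes named below, such as Snhg15 and Nop56, repeat a value on 2 antibody arrays. Where values repeat, SE and p may be too small. Snora75, in an intron of nucleolin, passed the test at −0.51 (limma adjusted p 0.047), with overlapping groups of 6.75, 6.79 and 7.17 with the antibody and 7.49, 7.58 and 7.16 with IgG. With 1 array left out, and so with less power, the calls of Snora69 (5 of the 6 arrays, up to an adjusted p of 0.13), Snora21 (4 of the 6, up to 0.13) and Snora75 (4 of the 6, up to 0.16) were lost, while those of Snora7a, Snora41, Snora68, Snora78 and Snora28 were kept. Of the 10 H/ACA members that did not pass, Snora2b had the most negative value in the family, −0.71, with an interval of −1.30 to −0.11, a limma adjusted p of 0.084 and an IgG SD of 0.52. Snora44 was the only one with a positive value, 0.01 (interval −0.14 to 0.17).

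Snora33 had the highest signal of the family and 2 probe sets that disagreed. The brighter, used here by rule, averaged 12.59 ± 0.02 with the antibody and 12.67 ± 0.03 with IgG (SD, n = 3 each), a change of −0.08 (limma adjusted p 0.25). The dimmer averaged 6.08 with the antibody and 6.74 with IgG, a change of −0.66 (limma adjusted p 0.0029 over all 41345 probe sets). Which of them follows the RNA was not tested. Snora16a, the third brightest named member, had 9.30, 9.37 and 9.46 with the antibody, against 9.56, 9.55 and 9.54 with IgG, groups that did not overlap, and just missed the test (change −0.18, limma adjusted p 0.056).

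**Figure D1:**
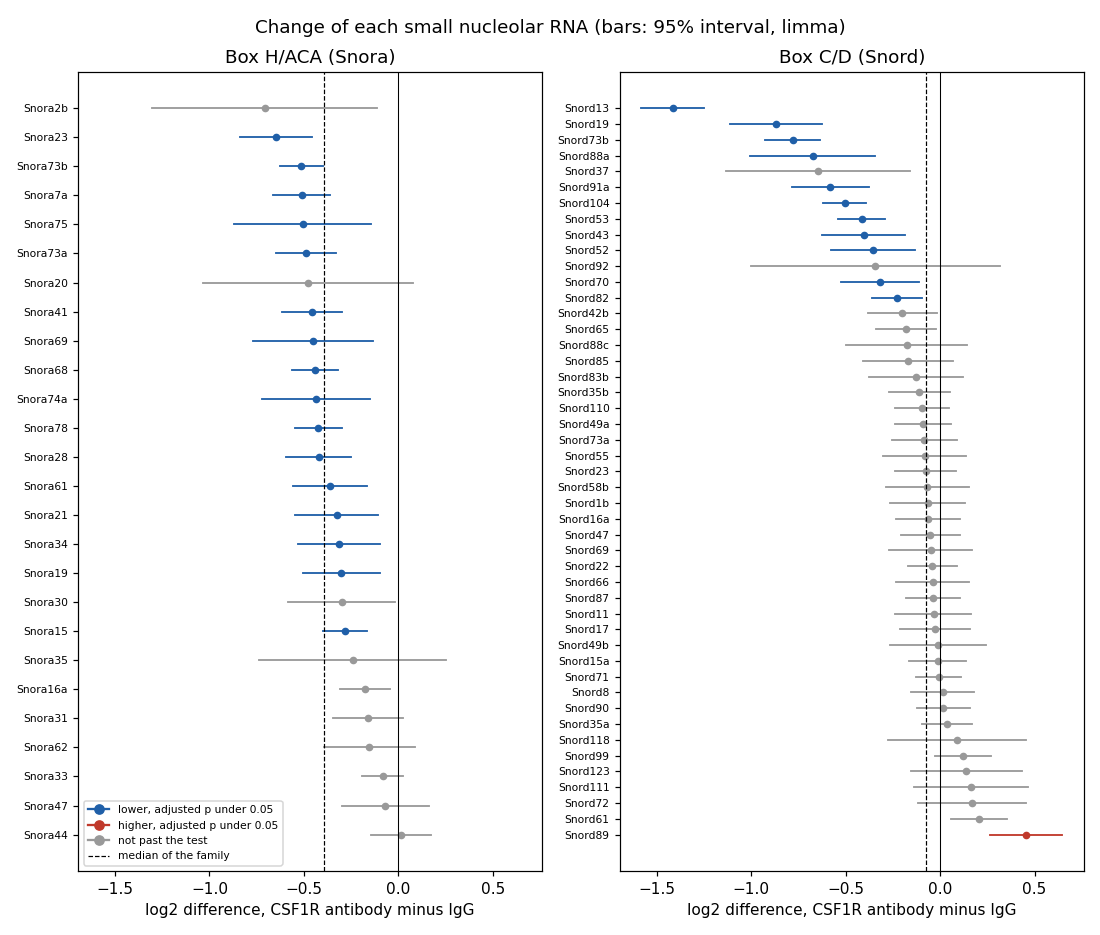
Log2 difference (CSF1R antibody minus IgG, x axis) of each of the 26 box H/ACA RNAs (left) and 47 box C/D RNAs (right), with 95% intervals from limma, and the median of each family as a dashed line. Blue points are lower and red points higher at an adjusted p under 0.05, and grey points did not pass. The H/ACA points gather around −0.39, while most C/D points, whose median turns positive with cyclic loess scaling, lie near 0 with a few far below, led by Snord13 at −1.42.

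Box C/D RNAs were lower with the antibody in 11 of 47 cases (23.4%, against 16% of all genes), higher in 1 (2.13%, against 12.5%) and not past the test in 35. Their median log2 difference was −0.08, or 0.035 with cyclic loess scaling, with quartiles of −0.27 and −0.01, and 37 of 47 differences were negative. The family's median lay between 8.14 and 8.30 on the antibody arrays and between 8.23 and 8.26 on the IgG arrays, so the antibody arrays fell on both sides of the IgG arrays. For 31 of the 35 members that did not pass, the 95% interval included 0, and for 31 it lay wholly above −0.39, the H/ACA median. The median distance from value to interval bound was 0.18. Among the 13116 genes above the background guide, 26% were lower and 20.1% higher, so the share of lower C/D RNAs was near the background and the share of higher ones below it. The difference between the families was not tested, and each family's own values are given as a description. Values stood apart, antibody below IgG, for 12 of 47 C/D members, against 22.7% of all genes, and antibody above IgG for 2 of 47, against 16.6% of all genes. Without IgG array 2 the count of lower C/D members was 7.

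Snord13, known as U13, had the largest change of all members. In human cells it is known to guide acetylation of the small subunit RNA, and it is transcribed from a gene of its own. Its log2 values were 7.86, 8.04 and 8.01 on the antibody arrays, against 9.39, 9.31 and 9.45 on the IgG arrays. Every antibody array lay more than a full log2 unit below every IgG array, and the change was −1.42 (SE 0.07, 95% interval −1.58 to −1.25, limma adjusted p 2.5e-05), or 2.67-fold lower. Snord13 was 1 of 3 members that lay inside no other RefSeq gene. The other two, Snord118 and Snord89, did not share its fall.

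Snord118, known as U8, is needed to process the large subunit RNAs and also has its own gene. It had 6.20, 5.71 and 5.83 with the antibody, against 6.02, 5.62 and 5.84 with IgG, groups that overlapped (change 0.09, 95% interval −0.28 to 0.45, limma adjusted p 0.74). Snord89 was the only member called higher. It had 8.39, 8.55 and 8.40 with the antibody, against 7.97, 7.89 and 8.12 with IgG, a change of 0.46 (SE 0.08, limma adjusted p 0.0057), with all antibody arrays above all IgG arrays. Snord61 was next in that direction, with groups that also stood apart, at 0.20 (limma adjusted p 0.051).

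Snord19, in an intron of the gene of the nucleolar GTPase Gnl3, was the second largest fall of the C/D family. It had 5.29, 5.37 and 5.36 with the antibody, against 5.97, 6.33 and 6.31 with IgG (change −0.87, SE 0.10, limma adjusted p 0.001). Snord73b, in the gene of the small subunit protein Rps3a1, had 9.30, 9.46 and 9.36 with the antibody, against 10.15, 10.21 and 10.10 with IgG (change −0.78, SE 0.06, limma adjusted p 0.00017). Both had antibody values well below all IgG values. The other falls past the test were Snord88a at −0.67, Snord91a at −0.58, Snord104 at −0.51, Snord53 at −0.42, Snord43 at −0.41, Snord52 at −0.36, Snord70 at −0.32 and Snord82 at −0.23. With 1 array left out, the call was lost for Snord70 (5 of the 6 arrays), Snord52 (4), Snord43 (3), Snord82 (2) and Snord88a (1, IgG array 2), with limma adjusted p values of up to 0.1 for Snord70, and kept for Snord19, Snord73b, Snord91a, Snord104 and Snord53. Of these, Snord91a had a level below the background guide in both groups. With the antibody, Snord19 (mean 5.34) and Snord88a (mean 5.15) lay close above it.

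Several well-known C/D RNAs did not pass. Snord22, known as U22 and needed in Xenopus to process the small subunit RNA, averaged 9.80 ± 0.07 with the antibody and 9.84 ± 0.02 with IgG (SD, n = 3 each), a difference of −0.04 with a 95% interval of −0.17 to 0.09. Snord35a, in an intron of Rpl13a, differed by 0.04 (interval −0.10 to 0.17) and Snord15a, in an intron of Rps3, by −0.01 (interval −0.16 to 0.14). Snord17, in Snx5, differed by −0.03 (interval −0.21 to 0.16). The intervals of these 4 exclude a fall of the H/ACA median's size. Of the 3 C/D members with the highest mean signal, Snord87 at −0.04 and Snord55 at −0.08 did not pass, while Snord82 fell by 0.23. Length and change were weakly related across members: Pearson's r between annotated length and change was 0.15 over 47 C/D RNAs and −0.26 over 26 H/ACA RNAs, which share arrays and probe chemistry.

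**Figure D2:**
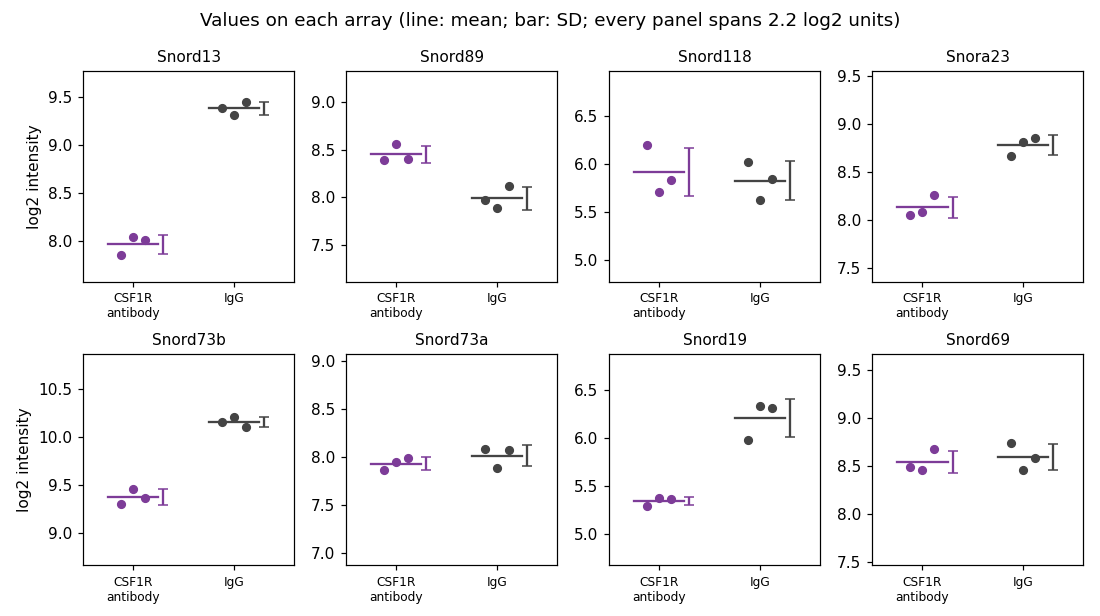
Log2 intensity (y axis, the same span of values in each panel) of 8 snoRNAs on each CSF1R antibody array (left in each panel) and each IgG array (right), with the mean as a line and the SD as a bar beside it. The antibody points of Snord13, Snora23, Snord73b and Snord19 lie below all IgG points, those of Snord89 lie above, and the groups overlap for Snord118, Snord73a and Snord69.

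Host genes were set beside the snoRNAs to ask whether an intronic RNA moved with the gene that carries it. A RefSeq gene whose span holds the snoRNA was counted as its host. Of the 73 members, 64 lay in 1 gene only (50 genes in all), 6 in several and 3 in none, and 41 of the 50 hosts were measured. Each host's value is that of its brightest probe set, whose place in the genome was not checked. For Rps3a1, Rpl3, Rpl23a, Rpsa, Rpl39 and Tpt1 its identifier lies far from that of the snoRNA held, unlike for Ncl or Gnl3. Whether these values read the gene that holds the snoRNA was not tested. Hosts were lower with the antibody in 30 of 41 cases and higher in 1, with a median of −0.30. The lower share was 73.2%, against 16% of all genes and 26% of those above the background guide. Of 47 cytosolic ribosomal protein genes not among these hosts, 21 were lower (44.7%) and 0 higher, with a median of −0.21. The 1 higher host was Tpt1, the translationally controlled tumour protein, at 0.21 (limma adjusted p 0.027), a call lost without any 1 of 5 of the 6 arrays. Among the hosts, 6 of 7 noncoding genes were lower with a median of −0.46, as were 24 of 34 protein-coding genes, with a median of −0.29.

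The changes of RNA and host were then set side by side. Among 32 C/D RNAs with a measured host, RNA and host were both lower in 8 pairs, and in 19 the host was lower while the RNA did not pass. In the remaining 5 neither passed. The median change was −0.09 for these C/D RNAs and −0.38 over their hosts, and the RNA's value lay above that of its host in 25 of 32 pairs. Among 23 H/ACA RNAs, both were lower in 10 pairs, only the host was lower in 6, only the RNA in 3 and neither passed in 3. In the last pair, Snora31 at −0.16 did not pass while its host Tpt1 rose. The medians were −0.36 for the H/ACA RNAs and −0.30 over their hosts. Across pairs, Pearson's r between the changes of RNA and host was 0.10 for H/ACA RNAs (n = 23) and 0.35 for C/D RNAs (n = 32), with some pairs sharing a host.

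**Figure D3:**
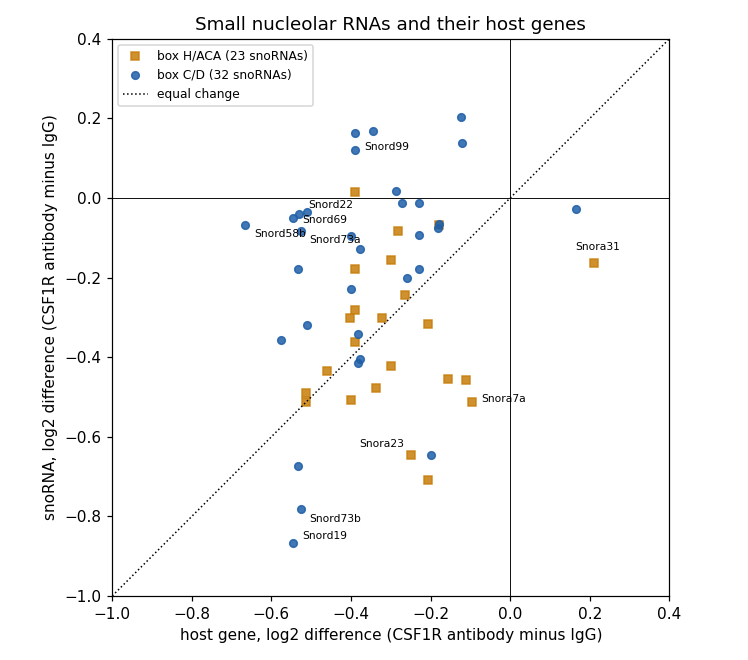
Log2 difference (CSF1R antibody minus IgG) of each snoRNA (y axis) against that of the gene that holds it (x axis), squares for 23 box H/ACA RNAs and circles for 32 box C/D RNAs, with equal change as a dotted line. Most C/D circles lie above the dotted line, close to 0 on the y axis, while their hosts lie between −0.67 and 0.17.

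Pairs of snoRNAs that lie in the same host gene were compared next. That both RNAs of a pair come from 1 transcript is assumed, since strand was not used in assigning hosts. There were 18 such pairs over 11 hosts. For each, the difference between both RNAs was taken on every array and compared between groups with a two-sided exact permutation test, whose smallest possible p with 3 arrays a group is 0.10. Adjusted over the 18 pairs, the smallest p was 0.18, so none could pass. The 18 pairs are not independent, since Snhg12 alone gives 6 of them and 2410006H16Rik 3. The array-wise difference did not overlap between the groups in 10 of the 18. Among those that overlapped, the pairs in Ncl, Kansl2 and Wdr43 had exact p values of 0.2, 0.4 and 0.8. Snord73a, which shares the host Rps3a1 with Snord73b, had 7.86, 7.95 and 7.99 with the antibody, against 8.09, 7.88 and 8.07 with IgG, a change of −0.08. The host changed by −0.53 (limma adjusted p 0.00063), on a probe set that may not read the gene holding the pair. Snord73a minus Snord73b averaged −1.44 ± 0.07 with the antibody and −2.14 ± 0.16 with IgG (log2, SD, n = 3 each), so their values lay closer together with the antibody, with no overlap between groups (exact p 0.1).

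Gnl3 also held an unequal pair. Snord69 had 8.49, 8.46 and 8.67 with the antibody, against 8.74, 8.46 and 8.58 with IgG, a change of −0.05 where Snord19 changed by −0.87 and the host by −0.55. In Nop58, itself a core protein of C/D particles, Snord70 changed by −0.32 and Snord11 by −0.04, with the host at −0.51. In 2410002F23Rik, Snord88a changed by −0.67 and Snord88c by −0.18, and in Rpl3, Snord43 changed by −0.41 and Snord83b by −0.13. In each of these 4 hosts the array-wise differences of the pair did not overlap between the groups (exact p 0.1), and in each only 1 RNA of the pair passed the gene test. Snord19 and Snord88a lay near the background guide with the antibody, and their partners were brighter.

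Snhg12, a noncoding host with 4 measured snoRNAs, showed a spread of this kind across both families. The host changed by −0.39 (limma adjusted p 0.023), Snora61 by −0.36, Snora16a by −0.18, Snora44 by 0.01 and Snord99 by 0.12, and of these 4 RNAs only Snora61 passed. The calls of Snhg12 and Snora61 were lost without most single arrays (5 and 4 of the 6, with limma adjusted p values of up to 0.086 and 0.061). Snora44 had 8.58, 8.54 and 8.64 with the antibody, against 8.64, 8.45 and 8.62 with IgG, while Snora61 had 8.06, 8.20 and 8.04, against 8.55, 8.32 and 8.52. Snora73a and Snora73b in Snhg3 behaved alike, with both near the host's −0.51, and their array-wise difference overlapped between groups (exact p 0.5). The 3 C/D RNAs of 2410006H16Rik had changes of −0.09 for Snord49a, −0.01 for Snord49b and −0.18 for Snord65, with the host at −0.23. None of these 3 passed.

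Some single members also had changes unlike their host's. Over all 55 pairs of RNA and host, the array-wise difference between RNA and host did not overlap between the groups in 24. The smallest exact permutation p was 0.1, or 0.23 adjusted over the 55 pairs, so none could pass. Snord22 at −0.04 lay in Snhg1, which was 8.54, 8.62 and 8.69 with the antibody, against 9.11, 9.23 and 9.09 with IgG (change −0.53, limma adjusted p 0.0012). Snora23 fell by 0.65, against a fall of 0.25 in its host Ipo7, a nuclear import receptor whose call was lost without any 1 of 5 of the arrays (limma adjusted p up to 0.089). Snora7a fell by 0.51 while its host Rpl32, a large subunit protein, had −0.10 and did not pass, and Snora41 fell by 0.46 while its host Eef1b2, a translation elongation factor, had −0.11 and did not pass. Noncoding snoRNA host genes named Snhg were lower in 9 of 15 cases (60%, against 16% of all genes), with a median of −0.39. Beside Snhg1, Snhg3 and Snhg12 these were Snhg7 at −0.55, Snhg4 at −0.46, Snhg5 and Snhg17 both at −0.44, Snhg6 at −0.42 and Snhg15 at −0.35, the last lost without any 1 of 3 of the arrays (limma adjusted p up to 0.054).

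Genes for proteins of the snoRNA particles were lower with the antibody. Among all genes 16% were lower, and 26% among those above the background guide. All 4 H/ACA core protein genes passed: Gar1, which averaged 8.20 ± 0.03 with the antibody and 8.80 ± 0.05 with IgG (SD, n = 3 each), changed by −0.60 (limma adjusted p 2e-04), the pseudouridine synthase Dkc1 by −0.49, Nhp2 by −0.46 and Nop10 by −0.24. Nop10 lost its call without any 1 of 5 of the 6 arrays (limma adjusted p up to 0.089). The 3 measured C/D core protein genes also passed, with Nop58 at −0.51, Nop56 at −0.40 and Snu13 at −0.35. Nop10, Nop56 and Snu13 each repeated 1 value on 2 antibody arrays, so their spread there is not fully measured. The methyltransferase gene Fbl had no probe set of its own. The C/D core protein genes thus fell while most C/D RNAs did not pass.

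Assembly factors bring the core proteins onto the RNA. Of 11 measured, 6 were lower (54.5%), 1 was higher (9.09%) and 4 did not pass, against 16% lower and 12.5% higher among all genes. The lower ones were Nolc1, a nucleolar chaperone, at −0.54, the paired ATPases Ruvbl1 at −0.53 and Ruvbl2 at −0.42, the C/D factors Znhit6 at −0.45 and Znhit3 at −0.42 and the H/ACA factor Shq1 at −0.41. The H/ACA factor Naf1 had −0.35 (limma adjusted p 0.061), Rpap3 −0.22, Pih1d1 −0.18 and Nufip1 −0.01, none past the test. Tgs1, which adds the trimethylguanosine cap to snoRNAs with genes of their own, averaged 9.81 ± 0.12 with the antibody and 9.48 ± 0.04 with IgG (SD, n = 3 each) and rose by 0.33 (limma adjusted p 0.012).

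Processing factors free the snoRNA from its intron and trim its ends. Of 7 measured, 6 were lower (85.7%, against 16% of all genes), none was higher and Exosc3 at −0.15 did not pass. The exosome nucleases Dis3 and Exosc10 changed by −0.49 and −0.47, the poly(A) polymerase Tent4b by −0.37, the lariat debranching enzyme Dbr1 by −0.31, the poly(A) ribonuclease Parn by −0.27 and the intron-binding helicase Aqr by −0.25. The call of Parn was lost without antibody array 1 or 2 (limma adjusted p 0.052 and 0.051). Small Cajal body RNAs (Scarna) are kin of the snoRNAs that guide modification of spliceosomal RNAs. They were lower in 2 of 5 cases (40%, against 16% of all genes), with a median of −0.24. The lower ones were Scarna17 at −0.29 (limma adjusted p 0.0077) and Scarna2 at −0.28 (limma adjusted p 0.019). The call of Scarna2 was lost without antibody array 1 or 3 (limma adjusted p 0.055 to 0.063). Among 483 miRNA genes, another kind of short RNA on the array, 18 (3.73%) were lower and 15 (3.11%) higher, with a median of −0.003, although 366 of them lay below the background guide.

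**Figure D4:**
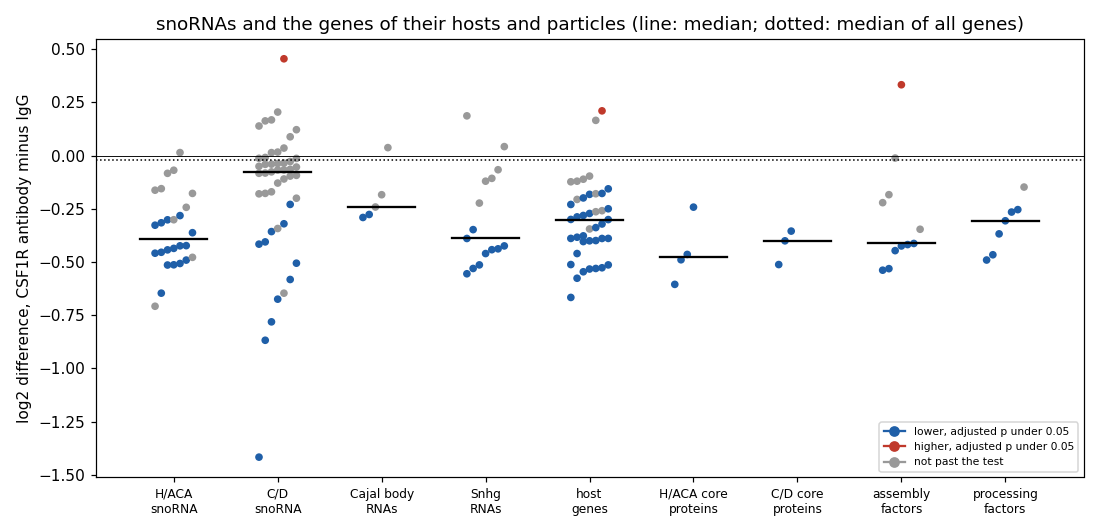
Log2 difference (CSF1R antibody minus IgG, y axis) of every measured gene of 9 groups, with the median of each group as a line and that of all genes, −0.02, dotted. Medians lie at −0.39 for H/ACA RNAs, −0.08 for C/D RNAs (0.035 with cyclic loess scaling) and −0.30 for host genes. They lie between −0.48 and −0.31 for the 4 groups of genes for particle proteins and factors.

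Cell type markers moved along with these changes, and their part in them was not tested. Among all genes 16% were lower and 12.5% higher, and among those above the background guide 26% and 20.1%. All 8 macrophage markers, Csf1r among them, were higher with the antibody, with a median change of 1.17 and array medians of 11.4 to 11.6 with the antibody, against 10.2 to 10.3 with IgG. Plasma cell or myeloma markers were lower in 6 of 10 cases (median −0.29, array medians 9.47 to 9.52 with the antibody and 9.80 to 9.86 with IgG). Stromal markers were lower in 5 of 8 and higher in 1 (median −0.38, array medians 6.41 to 6.53 with the antibody and 6.70 to 6.73 with IgG). All 7 measured proliferation genes were lower, with a median of −0.54 (array medians 9.59 to 9.62 with the antibody and 10.1 with IgG). Over all 41345 probe sets, arrays correlated at 0.992 to 0.993 within groups and 0.984 to 0.985 between groups, and no array stood apart.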

How the data were processed

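The 6 arrays, 3 a group, hold 1 intensity value a probe set, deposited unlogged. Per the submitters' processing notes, RMA and limma were among the tools, without version. RMA as usually run makes arrays alike in distribution, so a shift of most genes would be hidden. Here log2 was taken of the deposited intensity values. Precision is limited by the number of arrays. Of 41345 probe sets, 23521 had 1 gene symbol in the platform annotation, 1814 several and 16010 none. Each of 22180 genes took its single-symbol probe set with the highest mean. The gene test was limma's (version 3.58.1, R 4.3.3, lmFit and eBayes, 4 residual degrees of freedom, Benjamini-Hochberg adjustment, threshold 0.05). The script was checked on simulated data. Exact tests used scipy 1.17.1 and figures matplotlib 3.10.9 in Python 3.11.15.

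Hosts are RefSeq (GRCm38.p6) genes, miRNA genes left out, whose span holds the snoRNA. The gene table used has no strand, so the planned demand for the same strand was not applied, and a gene on the other strand can be among them. Named members are, in each family, up to 10 called falls and rises with groups apart, the 3 brightest and a set of textbook snoRNAs. Others (Snord61, Snora2b, Snora44, Snora61, Snora75, members in pairs or beside their hosts) were named after their values were seen. The members and gene lists were chosen with earlier results of these data known.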

Additional observations from a re-analysis of the deposited data

How the results depend on the processing

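Counts of H/ACA and C/D members were recomputed under 19 other settings (medians under all but those that change the threshold), 6 of them leaving out an array. Of 28 called members, 16 kept their call in every one run for them, Snord13, Snora23, Snora73b and Snord89 among them. With arrays centred on their medians, 10 H/ACA members were lower (median −0.35). With cyclic loess 9 were lower (median −0.30), the C/D median was reversed to 0.035 and 3 C/D members were higher. Medians with cyclic loess were −0.28 for genes of particle proteins and factors, −0.20 for hosts, of which 2 were higher, and −0.31 for Snhg genes. Over all genes these scalings turned 2766 higher and 3548 lower into 3071 and 2766 when centred and 3411 and 2346 with cyclic loess. At an adjusted p under 0.01, 9 H/ACA and 6 C/D members were lower, and 0 genes of particle proteins and factors and 0 hosts higher. C/D members higher numbered 2 with an intensity trend, centred arrays, each filter on low signal and an adjusted p under 0.1. Tpt1 was not called with probe sets averaged (0 hosts higher). Same-numbered arrays did not deviate together (correlations of 0.03, −0.05 and 0.003), and the replicate block gave 12 H/ACA and 11 C/D members lower, and 0 hosts higher. Leaving out 1 array gave 9 to 14 H/ACA members lower (9 without antibody array 1, 10 without IgG array 1; medians −0.42 to −0.34), 7 to 10 C/D members lower (7 without IgG array 2) and 1 to 2 higher, 0 to 1 hosts higher, and Snhg medians of −0.42 to −0.32. The cause was not tested. No array gave a measured background here, so low members such as Snord91a and Snora19 are least certain.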

Other observations

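Probe sets annotated to several genes, at least 1 of them a snoRNA, were left out of the comparison above and name no gene here. There were 43, and in a limma fit over all 41345 probe sets 31 of them were lower with the CSF1R antibody and 0 higher, where 9.95% of all probe sets were lower. Their median log2 difference was −0.50. Of the 43, 16 are annotated to 1 group of repeated C/D genes and hold the same change, −0.75 (mean 8.41 with the antibody and 9.16 with IgG), so they amount to 1 measurement. The other 27 had a median of −0.34 and a range of −0.82 to 0.15, with 15 lower.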
